A study of Homo sapiens with 6 samples.

Results

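The transcripts described here encode the cytosolic protein-folding machinery: the HSP70 and HSP90 chaperones with their cochaperones, the small heat shock proteins, the 8 subunits of the chaperonin CCT and the 6 subunits of prefoldin. They were chosen by name, as a list of 34 gene symbols, and all 34 matched a row of the deposited count table of 28395 Entrez gene IDs. RNA came from TC28a2, an immortalised human chondrocyte line, harvested 48 h after transfection with a control vector (3 libraries) or with a ZEB1 overexpression vector (3 libraries). ZEB1 is a zinc finger transcription factor best known as a repressor in epithelial to mesenchymal transition, and the series comes from a study of senescent cells in osteoarthritis. The comparison asks which transcripts differ when ZEB1 is overexpressed. The labels name no promoter for the vector, no share of transfected cells, no batch and no separate cultures, so the spread behind each p-value is that of these libraries and may be technical.

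HSP70 binds short hydrophobic stretches of unfolded chains in an ATP-driven cycle that J-domain proteins start and nucleotide exchange factors end. HSP90 receives near-folded clients such as kinases and steroid receptors from HSP70, with the adaptor STIP1 bridging both machines. Prefoldin, a jellyfish-shaped hexamer, captures nascent actin and tubulin and hands them to CCT, a double-ring chamber in which they fold. Under heat or proteotoxic stress the transcription factor HSF1 binds heat shock elements and induces HSPA1A, HSPA1B, DNAJB1, HSPB1, BAG3 and HSP90AA1, while HSPA8, HSP90AB1, CCT and prefoldin are made constitutively.

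None of the chaperone genes passed the test with the ZEB1 vector. In edgeR's quasi-likelihood test, with Benjamini-Hochberg adjustment over the 11329 genes that had enough counts, 0 of the 33 tested members had an adjusted p under 0.05, where 0.00883% of all tested genes did (1 gene, ZEB1). The smallest adjusted p among the members was 0.251, for the prefoldin subunit gene PFDN4. At an unadjusted p under 0.05 there were 5 members above the controls, PFDN4, PFDN5, VBP1, CHORDC1 and CCT4, against 5.83% of all genes, and 1 below, HSP90AB1, against 3.57% (6 members in either direction, against 9.4%). DESeq2 called 1 of the 29 members to which it gave an adjusted p, PFDN4. It called 7.25% of the 2455 genes to which it gave one. Limma-voom called 0 members, where it called 0.512% of the 11329 genes.

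The differences were also small. Log2 fold changes of the 33 members ran from -0.33 to 0.64 with a median of 0.025, and the median over all tested genes was -0.014. Of the 33, 20 lay above 0, where 48.5% of all genes did. Without composition scaling, by library size alone, the all-gene median was -0.14, 14 members lay above 0, and 2 members above and 2 below the controls had an unadjusted p under 0.05. With RLE factors those counts were 6 and 0, and with upper-quartile factors 5 and 0. The members were well counted, with a median standard error of 0.15 against 0.33 over all tested genes. The 95% interval of the fold change lay inside 2-fold in either direction for 31 of the 33 members, and for 50.4% of all tested genes. It lay inside 1.5-fold for 23 members, and for 17% of all genes. The exceptions to the 2-fold bound were PFDN4 and the thinly counted small heat shock protein gene HSPB8. In 5 members the 3 ZEB1 libraries all lay above the 3 controls (6.96% of all genes) and in 2 they all lay below (8.16%), together 7 members against 15.1% of genes. The map of members by library and the plot of fold changes with their intervals show these values.

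**Figure D1:**
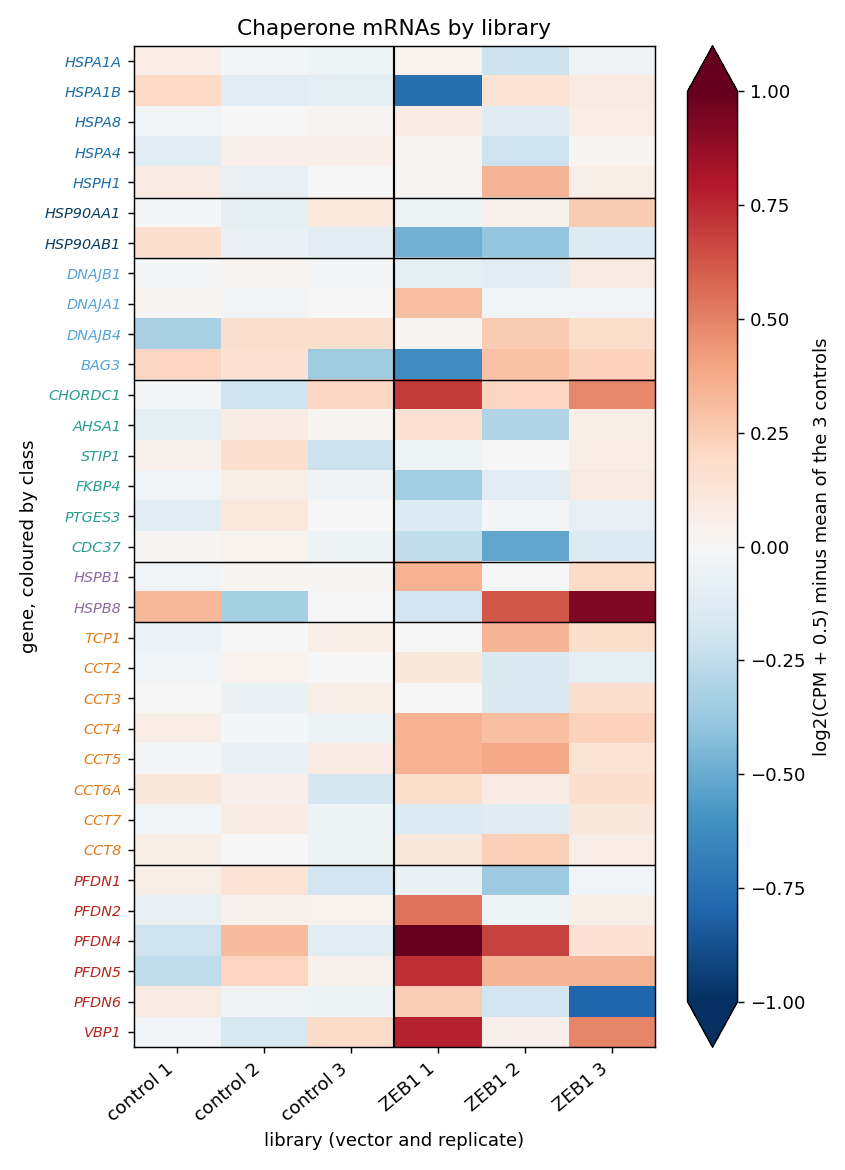
Each row is one of the 33 tested chaperone genes and each column a library, and colour is log2(CPM + 0.5) minus the mean of the 3 control libraries, with values beyond 1 drawn in the end colour. HSP70, HSP90 and cochaperone rows are pale in most libraries, while PFDN4, PFDN5 and VBP1 are darkest in ZEB1 replicate 1.

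**Figure D2:**
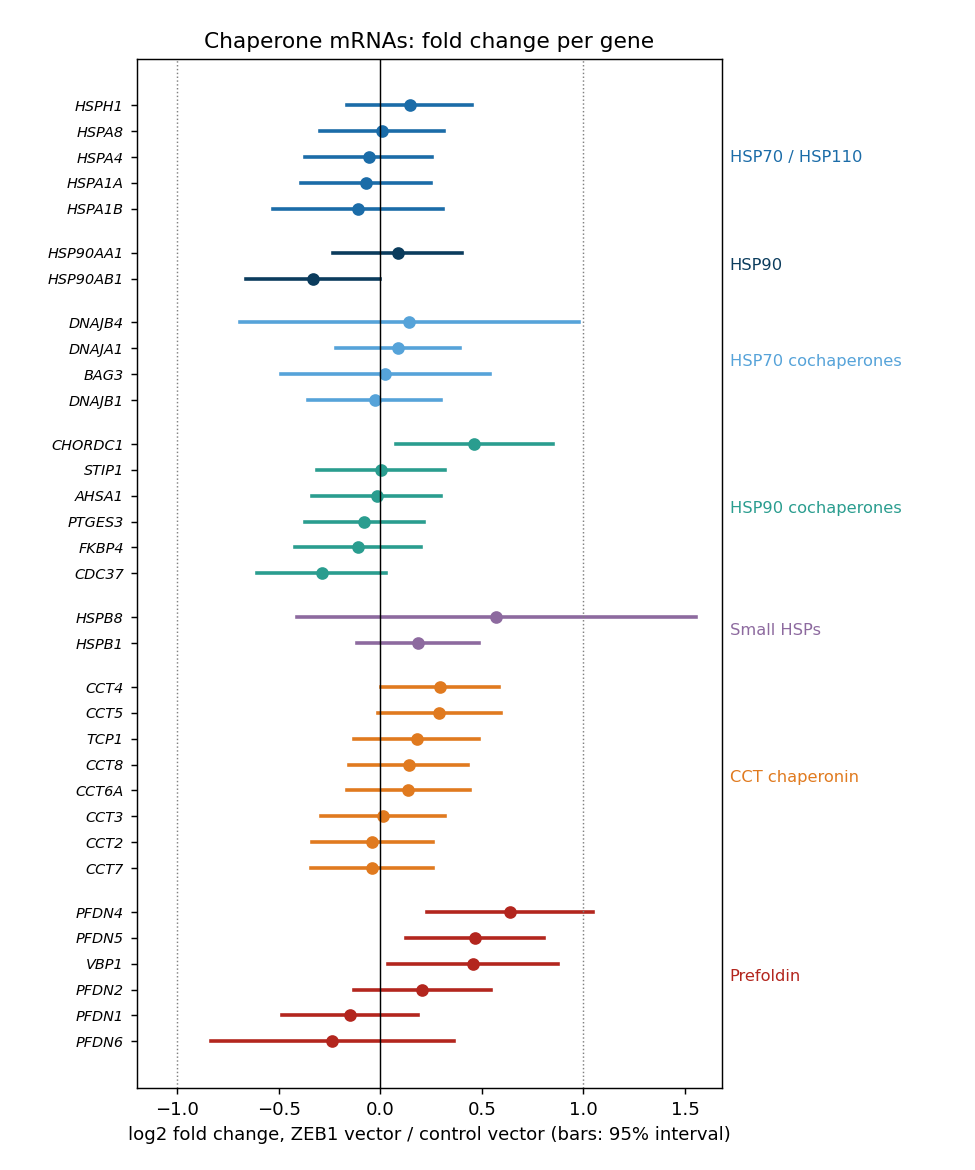
Points are edgeR log2 fold changes of the ZEB1 vector over the control vector and bars their 95% intervals, grouped by class, with dotted lines at 2-fold. Most intervals cross 0, and 31 of the 33 lie inside the dotted lines.

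The control libraries held 5359200 to 5878640 counts, and ZEB1 replicates 1, 2 and 3 held 1277632, 1621270 and 3316228. ZEB1 itself rose from 24.9 ± 6.64 to 11070 ± 3724 CPM (library-scaled counts, with TMM factors; SD, n = 3; edgeR adjusted p = 2.37e-13), and replicates 1, 2 and 3 of the ZEB1 group had 12270, 14050 and 6894 CPM, so the shallower libraries also had more ZEB1. Of 16 chondrocyte markers only SOX9 had enough counts to be tested, with 67.3 ± 14.5 CPM in control libraries and 68.3 ± 8.88 CPM under ZEB1 overexpression (SD, n = 3). ACAN and COL2A1, which define cartilage, had at most 8 counts in any control (1.31 CPM) and 0 in control replicate 2 and in each ZEB1 library. A count of 0 in the ZEB1 libraries allows up to 0.894 to 2.67 CPM, so a difference between the vectors cannot be read from these 2 genes. Summed over their lists, epithelial markers reached 0.816 to 2.73 CPM in every library, and leukocyte markers 180 to 200 CPM in control libraries and 175 to 258 CPM under ZEB1, most of it SRGN, while CD3E had 0 counts in every library and PTPRC at most 2. Endothelial markers summed to 32.9 to 47.9 and 37.3 to 61.1 CPM, and neuronal markers, mostly TUBB3 and UCHL1, to 430 to 446 and 366 to 451 CPM, in the same order of groups. The part of depth, ZEB1 level or these markers in the differences described was not tested. In bulk RNA, fewer cells making a transcript and less of it per cell cannot be told apart.

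The HSP70 genes differed little between the vectors. HSPA8, the constitutive HSP70 and the member of this class with the most counts, had 2854, 2909 and 2967 CPM in the 3 controls (replicates 1 to 3 in order) and 3062, 2671 and 3052 CPM under ZEB1, in replicate order. The groups overlapped, and the log2 fold change was 0.0092 (SE 0.15, 95% interval -0.30 to 0.31). HSPA1A, the stress-induced HSP70, had 182.5, 171.5 and 169 CPM in control libraries and 179, 150 and 170 CPM under ZEB1. Its twin HSPA1B, at a neighbouring locus, had 148, 120 and 121 CPM against 76.4, 142 and 137 CPM, with ZEB1 replicate 1 the lowest of the 6 libraries. The transcripts of this pair share 72.6% and 71.4% of their 50-base stretches, so how reads were divided between them is uncertain. Their log2 fold changes were -0.070 (SE 0.15) and -0.11 (SE 0.20), and without ZEB1 replicate 1 that of HSPA1B was 0.10. The nucleotide exchange factors of the HSP110 branch, HSPA4 and HSPH1, stood at log2 fold changes of -0.057 and 0.14 (SE 0.15 for both), and all 5 genes of the class had overlapping groups.

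A ratio taken within a library does not depend on how libraries are scaled. The summed counts of HSPA1A and HSPA1B were 0.116, 0.1 and 0.0977 of the HSPA8 count in control libraries and 0.0833, 0.109 and 0.101 under ZEB1. The highest ratio stood in control replicate 1 and the lowest in ZEB1 replicate 1, and the groups overlapped. On the log2 scale the difference was -0.10 (exact permutation test, two-sided, p = 0.6), and it was 0.0084 without ZEB1 replicate 1.

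The paralogs of HSP90 lay on opposite sides of 0. HSP90AB1, the constitutive cytosolic HSP90 (chromosome 6, 44246194 to 44253883, GRCh38.p14), had 5395, 4587 and 4470 CPM in the controls against 3441, 3673 and 4370 CPM under ZEB1, in replicate order. All ZEB1 libraries lay below all controls, by a narrow margin for ZEB1 replicate 3 and control replicate 3. The log2 fold change was -0.33 (SE 0.16, 95% interval -0.66 to -0.0035), with an edgeR p of 0.0478 before and 0.528 after adjustment. HSP90AA1, the inducible cytosolic HSP90 (chromosome 14, 102080742 to 102139749), had 3704, 3535 and 4040 CPM against 3632, 3869 and 4472 CPM. Here the groups overlapped, with a log2 fold change of 0.086 (SE 0.15).

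The ratio of HSP90AA1 to HSP90AB1 counts was 0.687, 0.771 and 0.904 in the controls against 1.06, 1.05 and 1.02 in ZEB1 replicates 1, 2 and 3. Every ZEB1 library thus held more HSP90AA1 than HSP90AB1 counts and every control fewer. The mean log2 ratio was -0.35 ± 0.20 in the controls and 0.062 ± 0.025 with the ZEB1 vector (SD, n = 3), a difference of 0.42. An exact permutation test gave p = 0.1 (two-sided), the smallest that 3 libraries against 3 can give. The log2 ratio of the ZEB1 libraries ran from 0.033 to 0.078, and that of the controls more widely, from -0.54 to -0.15. Leaving out single libraries left the difference between 0.32 and 0.52. The ratio was chosen with the fold changes of both genes known from these data, so that its separation adds no independent evidence. HSP90 as a class took 0.897 ± 0.0711% of all counts in the controls and 0.747 ± 0.138% with the ZEB1 vector (SD, n = 3). These are shares of raw totals, without composition scaling. The groups overlapped, at 0.831% to 0.973% in the controls and 0.623% to 0.895% under ZEB1. The share of all members was 2.18 ± 0.0802% and 1.98 ± 0.210%, in the same order of groups.

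**Figure D3:**
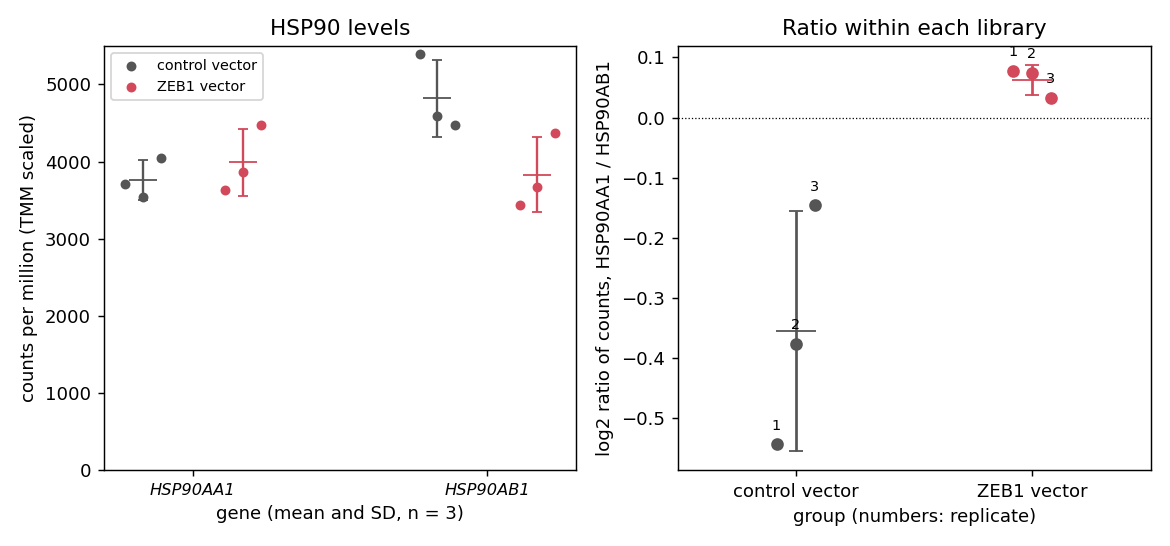
Left, CPM of HSP90AA1 and HSP90AB1 in each library (points) with mean and SD (n = 3); right, the log2 ratio of their counts within each library, labelled by replicate. The 3 control ratios lie below 0 and the 3 ZEB1 ratios between 0.033 and 0.078.

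The heat shock element, the site that HSF1 reads, is shown here before the start sites of 4 members that hold it, beside PFDN4, the member with the largest fold change. Sequences are the 250 bases before a RefSeq start site (GRCh38.p14), 5′ to 3′ on the gene's strand, and capitals mark GAANNTTC or TTCNNGAA, the paired units of the element.
HSP90AA1 (chr14:102087045-102087294, minus strand): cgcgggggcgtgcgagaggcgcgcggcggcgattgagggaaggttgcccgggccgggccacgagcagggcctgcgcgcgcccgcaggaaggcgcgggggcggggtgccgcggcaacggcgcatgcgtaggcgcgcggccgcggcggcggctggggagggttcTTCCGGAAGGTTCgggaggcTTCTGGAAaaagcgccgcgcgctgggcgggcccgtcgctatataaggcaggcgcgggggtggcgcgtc
HSP90AB1 (chr6:44247693-44247942, plus strand): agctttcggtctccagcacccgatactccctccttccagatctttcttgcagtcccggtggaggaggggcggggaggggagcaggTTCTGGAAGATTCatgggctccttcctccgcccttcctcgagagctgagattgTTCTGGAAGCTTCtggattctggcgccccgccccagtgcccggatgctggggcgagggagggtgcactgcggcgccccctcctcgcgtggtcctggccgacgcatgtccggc
CHORDC1 (chr11:90223050-90223299, minus strand): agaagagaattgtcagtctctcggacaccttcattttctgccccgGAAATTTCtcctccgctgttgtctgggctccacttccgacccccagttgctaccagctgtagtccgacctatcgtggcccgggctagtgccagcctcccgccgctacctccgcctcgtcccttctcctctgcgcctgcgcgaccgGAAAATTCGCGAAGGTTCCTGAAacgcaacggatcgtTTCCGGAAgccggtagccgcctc
DNAJB1 (chr19:14518398-14518647, minus strand): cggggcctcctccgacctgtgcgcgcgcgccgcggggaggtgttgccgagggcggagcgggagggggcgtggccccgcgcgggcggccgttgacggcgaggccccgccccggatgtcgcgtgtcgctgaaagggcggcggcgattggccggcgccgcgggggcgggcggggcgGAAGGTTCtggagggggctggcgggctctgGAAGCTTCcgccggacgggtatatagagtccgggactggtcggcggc
PFDN4 (chr20:54207837-54208086, plus strand): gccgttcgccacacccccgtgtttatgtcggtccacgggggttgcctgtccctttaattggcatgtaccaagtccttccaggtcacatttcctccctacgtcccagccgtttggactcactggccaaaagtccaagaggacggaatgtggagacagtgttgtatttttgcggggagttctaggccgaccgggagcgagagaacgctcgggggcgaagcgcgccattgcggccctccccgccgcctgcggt
Counting matches that overlap, HSP90AA1 had 3, HSP90AB1 4, CHORDC1 6, DNAJB1 2 and PFDN4 0 in these windows. In CHORDC1 a run of 4 overlapping matches began 60, 55, 50 and 45 bases before the start site. In HSP90AB1 the matches came as overlapping pairs, at 165 and 160 and at 112 and 107 bases before it. Where a gene had several start sites, the window with the most matches is shown. For HSP90AA1, HSP90AB1 and DNAJB1 that window lies inside the full coordinates of the gene, rather than before its outermost start.

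RefSeq windows of 250 bases were found for 30 of the 34 members. At least 1 match stood in 14 of these members, and in 34.9% of the members' 43 windows against 11.6% of all 35116 windows. Both HSP90 genes, 3 of 5 HSP70 genes, 3 of 4 HSP70 cochaperones and both small heat shock protein genes with a window had one, as did 1 of 5 HSP90 cochaperones, 2 of 7 CCT and 1 of 5 prefoldin genes. The tested members with a match had log2 fold changes of -0.33 to 0.57 with a median of 0.048, and those without -0.29 to 0.64 with a median of 0.019. The letters CACCTG or CAGGTG, the 2 strands of the E-box that ZEB1 is known to bind, stood in 4.65% of the members' windows against 17.5% of all windows. The members were HSP90AB1, in another of its windows than the one shown (log2 fold change -0.33) and STIP1 (0.0020). Both motifs were searched on both strands, and neither holds the other. A match to these letters does not show that a factor binds there.

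The HSP70 cochaperones also had overlapping groups, all 4 of them. DNAJA1, a J-domain partner of HSPA8 and the one with the most counts, had 387.5, 373 and 381 CPM in control libraries and 469, 374 and 373 CPM under ZEB1. Only ZEB1 replicate 1 stood above the controls, and the log2 fold change was 0.088 (SE 0.15). DNAJB1, the heat-induced J-domain protein, had 135, 140 and 135 CPM against 128, 127 and 145 CPM (log2 fold change -0.028, SE 0.16). BAG3, which links HSP70 to autophagy and is induced by proteotoxic stress, had 67.0, 63.8 and 44.9 CPM against 37.3, 70.7 and 67.6 CPM, with a log2 fold change of 0.025 (SE 0.25) and a wide spread in both groups. DNAJB4 had 9.78 to 13.9 CPM in control libraries and 12.4 to 14.8 CPM under ZEB1 (log2 fold change 0.14, SE 0.40). Its locus overlaps FUBP1, and that of DNAJB1 overlaps TECR.

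Of the 6 HSP90 cochaperones, 2 had groups that did not overlap, in opposite directions, as had 15.1% of all tested genes in either direction. CHORDC1, a zinc-binding HSP90 partner (chromosome 11, 90200429 to 90223049), had 83.6, 73.5 and 97.4 CPM in the controls against 137, 97.7 and 118 CPM under ZEB1, in replicate order. The lowest ZEB1 library stood just above the highest control. Its log2 fold change was 0.46 (SE 0.19, 95% interval 0.075 to 0.85, edgeR adjusted p = 0.419). CDC37, which recruits kinases to HSP90 (chromosome 19, 10391133 to 10403542), had 243, 246 and 232 CPM against 203, 168 and 219 CPM. All 3 ZEB1 libraries lay lower, and the log2 fold change was -0.29 (SE 0.15, 95% interval -0.61 to 0.030, edgeR adjusted p = 0.594).

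The other HSP90 cochaperones had overlapping groups. FKBP4, an immunophilin of steroid receptor complexes with the most counts of the class, had 561, 596 and 558 CPM against 450, 529 and 607 CPM (log2 fold change -0.11, SE 0.15). STIP1, the HSP70 to HSP90 adaptor, had 271, 296 and 226 CPM against 256, 262 and 276 CPM (log2 fold change 0.0020, SE 0.15). AHSA1, which stimulates the HSP90 ATPase, and PTGES3, the p23 cochaperone, had log2 fold changes of -0.018 and -0.078 (SE 0.15 and 0.14).

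Small heat shock proteins hold unfolded chains without using ATP. HSPB1 had 390, 402.5 and 400 CPM in control libraries and 506, 398 and 453 CPM under ZEB1. ZEB1 replicate 2 lay inside the control range, and the log2 fold change was 0.19 (SE 0.14). HSPB8, the BAG3 partner, had 65, 35 and 50 counts in control and 8, 20 and 54 in ZEB1 libraries (10.4, 6.38 and 8.16 against 7.11, 12.9 and 16.1 CPM). Its log2 fold change of 0.57 had a 95% interval of -0.41 to 1.55, which includes a doubling, and was 0.28 without ZEB1 replicate 3 and 0.81 without ZEB1 replicate 1. CRYAB, alpha-B crystallin, is a member of the list that could not be tested, with 0 counts in each of the 6 libraries. A count of 0 allows up to 0.547 CPM in control libraries and up to 0.894 to 2.67 CPM in the ZEB1 libraries. That floor is 3 counts and covers counting error only. The CRYAB locus overlaps HSPB2, a readthrough transcript and C11orf52, which were also at 0, and how reads over several genes were treated is not given in the sources used here.

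CCT subunit mRNAs had log2 fold changes above 0 in 6 of 8 genes, where 48.5% of all tested genes were above 0, and none passed the adjusted threshold. Their median was 0.14, and it was 0.084 without control replicate 3 and 0.086 without ZEB1 replicate 2. CCT5 (chromosome 5, 10249921 to 10266412) had 781, 758 and 838 CPM in control libraries and 1009, 1032 and 869 CPM under ZEB1. CCT4 (chromosome 2, 61868085 to 61888671) had 401, 379.5 and 370 CPM against 488, 473 and 449 CPM. In both genes every ZEB1 library exceeded every control. Their log2 fold changes were 0.29 each (SE 0.14), with edgeR adjusted p = 0.559 for CCT5 and 0.528 for CCT4. CCT8 also had groups that did not overlap, with 457, 439 and 424 CPM against 477, 520 and 460 CPM (log2 fold change 0.14, SE 0.14). All ZEB1 libraries thus lay above all controls in 3 of the 8 CCT genes, and they did so in 6.96% of all tested genes.

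The remaining CCT subunits overlapped between the groups. CCT3, the subunit with the most counts, had 922, 880 and 960 CPM against 919, 833 and 1034 CPM (log2 fold change 0.014, SE 0.15). TCP1 and CCT6A had log2 fold changes of 0.18 and 0.14, and CCT2 and CCT7 had -0.039 and -0.042. Averaged over the 8 genes relative to the controls, log2 CPM was 0.12 in each of the 3 ZEB1 libraries and -0.016 to 0.014 in the controls. The same average over all 33 tested members was 0.089, 0.04 and 0.108 in ZEB1 replicates 1, 2 and 3. The part of depth in these offsets was not tested. The CCT offset depended on scaling, since with library size alone the median log2 fold change of the 8 genes was 0.0039, where that of all genes was -0.14.

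CCT subunits are used in equal numbers in the complex, while their mRNAs were not equally abundant. Mean control levels ran from 250 CPM for TCP1 to 921 CPM for CCT3. Per kilobase of transcript, they ran from 99.9 CPM per kb for TCP1 to 428 CPM per kb for CCT3. Dividing by length is only apt if reads came from whole transcripts. DRUG-seq, the library type used here, normally counts transcript ends, so the values per kilobase may mislead. Whether these libraries counted only transcript ends is not given in the sources used here. Within the summed CCT counts, the CCT5 share was 19.0 ± 0.950% in the controls and 21.5 ± 2.06% with the ZEB1 vector, and the CCT4 share 9.20 ± 0.358% and 10.4 ± 0.455%. The CCT7 share was 16.01 ± 0.829% and 14.3 ± 1.36% (SD, n = 3 for each). Only for CCT4 did these shares not overlap between the groups, at 8.86% to 9.57% and 9.89% to 10.8%.

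Prefoldin held the member with the highest fold change, PFDN4, with 4 of 6 genes above 0 and 2 below. PFDN4 (chromosome 20, 54208087 to 54219961) had 226.5, 326.5 and 244 CPM in the controls against 538.5, 420 and 290 CPM under ZEB1, in replicate order. The groups overlapped, because ZEB1 replicate 3 lay below control replicate 2. The log2 fold change was 0.64 (SE 0.20, 95% interval 0.23 to 1.05, edgeR adjusted p = 0.251). DESeq2 called this gene (adjusted p = 0.0316), as did edgeR without ZEB1 replicate 3 (log2 fold change 0.84, adjusted p = 0.011) and with no filter on low counts (adjusted p = 0.0346). Without ZEB1 replicate 1 the log2 fold change was 0.40 (adjusted p = 0.544).

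PFDN5, also known as MM1 for its binding to MYC (chromosome 12, 53295542 to 53299450), had 261.5, 363 and 321 CPM against 519, 395.5 and 395 CPM. The ZEB1 libraries lay above the controls, with a log2 fold change of 0.47 (SE 0.16, edgeR adjusted p = 0.310). VBP1, prefoldin subunit 3 and a partner of the tumour suppressor VHL (chromosome X, 155197007 to 155239841), had 74.3, 67.6 and 86.65 CPM against 130, 78.45 and 107 CPM. Its groups overlapped, with a log2 fold change of 0.45 (SE 0.20, edgeR adjusted p = 0.485). PFDN2, the prefoldin gene with the most counts, had 474, 516 and 511 CPM against 730, 486 and 521 CPM, so that only ZEB1 replicate 1 stood clear of the controls (log2 fold change 0.21, SE 0.16). PFDN1 (log2 fold change -0.15, SE 0.16) and PFDN6 (-0.24, SE 0.29) had values below 0. PFDN6 overlaps WDR46, and had 249, 200 and 221 counts in control and 50, 51 and 72 in ZEB1 libraries. In CPM these were 39.9, 36.5 and 36.1 against 44.4, 32.8 and 21.45, so the groups overlapped.

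**Figure D4:**
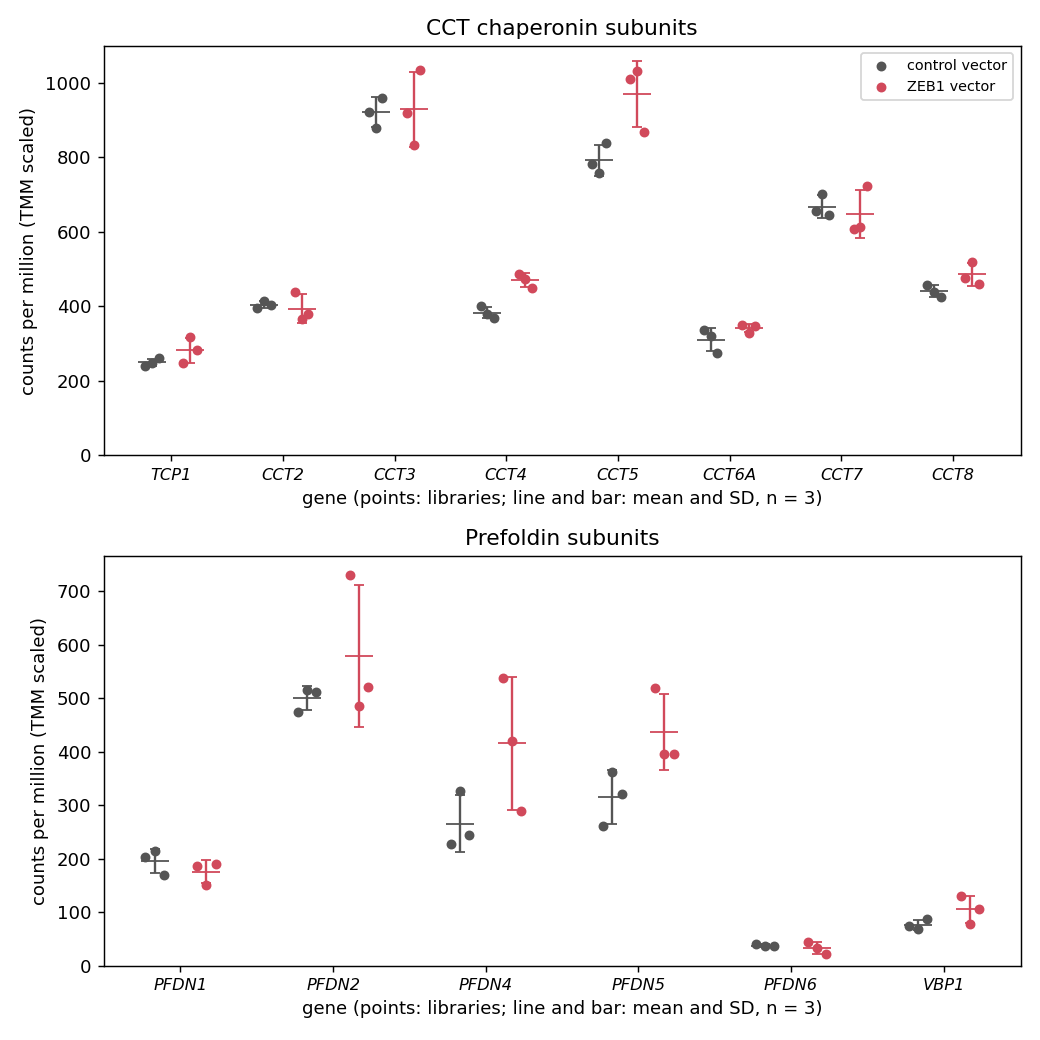
CPM of the 8 CCT (top) and 6 prefoldin (bottom) subunit genes in each library, with the mean and SD of each group (n = 3). CCT4, CCT5 and CCT8 points separate by vector, as do those of PFDN5. The margin is narrow for CCT8, with its highest control at 457 CPM and its lowest ZEB1 library at 460 CPM. For PFDN2 only ZEB1 replicate 1, at 730 CPM, lies above the controls by more than their spread.

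The class average of prefoldin was highest in 1 library. Averaged over the 6 genes relative to the controls, log2 CPM was 0.54 in ZEB1 replicate 1, the shallowest library, and 0.079 and 0.036 in the other two, while the controls ran from -0.071 to 0.085. The median log2 fold change of the 6 genes was 0.33, and 0.15 without ZEB1 replicate 1. With all libraries thinned to 1277632 counts it was 0.36. Without ZEB1 replicate 1, PFDN5 had a log2 fold change of 0.32, VBP1 0.29 and PFDN2 0.0051.

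Prefoldin transcripts are also short, with a median of 1118 nt against 3174 nt over all tested genes (GENCODE v29). Over all genes whose mean count reached 20, the median log2 fold change was 0.088 in the shortest quartile by length (up to 2040 nt) and -0.055 to -0.057 in the other 3. Of the 33 tested members, 12 were in the shortest quartile. With the trend of each library against transcript length removed, an alternative chosen after seeing the data, the prefoldin median was 0.018. Under it PFDN4 had 0.58, VBP1 0.44, PFDN5 0.20 and PFDN2 -0.17. With the trend against GC content also removed, PFDN4 had 0.39 and VBP1 0.30, and the prefoldin median was 0.060. The transcripts of PFDN4 and VBP1 have 35.3% and 38.2% GC. The CCT median was 0.18 with the length trend removed and 0.10 with both removed.

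**Figure D5:**
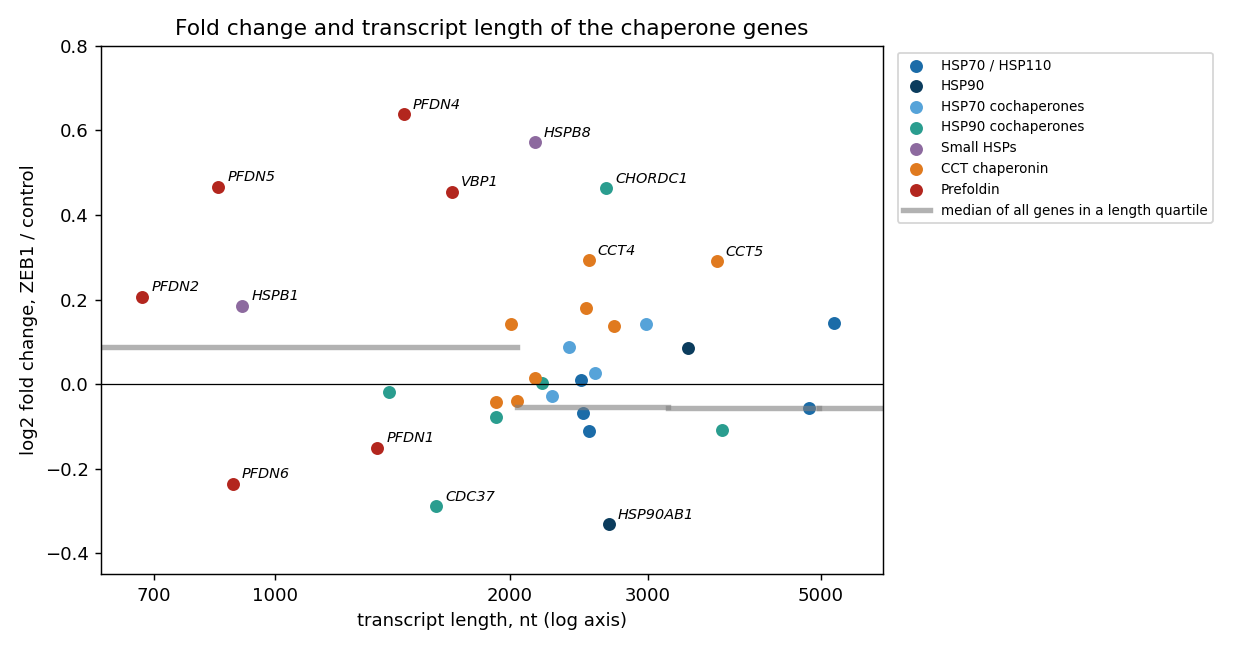
Log2 fold change of each tested member against its transcript length (log axis), coloured by class, with grey bars at the median of all well-counted genes in each length quartile. The 6 prefoldin genes lie on the short side at -0.24 to 0.64, while CHORDC1, CCT4 and CCT5 are longer than 2040 nt and lie at 0.29 to 0.46.

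A wider list of 72 related genes was read in the same fit, and 62 had enough counts. None had an adjusted p under 0.05 in edgeR, with 36 log2 fold changes above 0, 26 below 0 and a median of 0.077. At an unadjusted p under 0.05 there were 6 above, where 5.83% of all tested genes were, and 1 below, where 3.57% were. The 1 below was HSF1, the heat shock factor itself, with 713, 567 and 587 counts in control and 68, 112 and 311 in ZEB1 libraries (104.5 ± 9.34 and 75.0 ± 16.3 CPM, SD, n = 3, log2 fold change -0.45, edgeR adjusted p = 0.462). HSBP1, a small protein that binds HSF1 and restrains it, lay the other way at 259 ± 27.8 and 394 ± 112.5 CPM (SD, n = 3, log2 fold change 0.60, edgeR adjusted p = 0.241). For both genes the ZEB1 libraries did not overlap the controls, as held for 15.1% of all tested genes in either direction. Of the 62 related genes, 8 had all ZEB1 libraries above all controls and 5 had them below. Over all tested genes these shares were 6.96% and 8.16%.

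Genes that work beside CCT and prefoldin were 9 of 12 above 0, with a median log2 fold change of 0.22. TBCA, a tubulin folding cofactor that accepts beta-tubulin after CCT, had 308 ± 46.8 CPM in control libraries and 516.5 ± 202 CPM under ZEB1 overexpression (SD, n = 3, log2 fold change 0.74, edgeR adjusted p = 0.226), from a transcript of 683 nt. The TBCA groups overlapped, with 735, 478 and 336 CPM in ZEB1 replicates 1, 2 and 3 and 360 CPM in control replicate 2. TXNDC9, a CCT-binding thioredoxin-like protein, had a log2 fold change of 0.69 (edgeR adjusted p = 0.303). The nascent chain factors NACA (0.48) and BTF3L4 (0.48) and the ubiquitin gene UBB (0.48), which is stress-induced, were the others. In TBCA, TXNDC9, NACA, BTF3L4, UBB and HSBP1 alike, CPM fell from ZEB1 replicate 1, the shallowest library, through replicate 2 to replicate 3. The part of depth in that order was not tested. DESeq2 gave adjusted p = 0.0165 for TBCA, 0.0274 for HSBP1, 0.0228 for NACA and 0.0157 for UBB. It called 7.25% of the 2455 genes to which it gave an adjusted p.

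The HSP70 and HSP90 networks had medians near 0, at 0.0017 over 21 genes and 0.044 over 19. HSPA6, an HSP70 made almost only under stress, was named after its counts were seen, with 18, 17 and 21 counts in the controls and 3, 0 and 0 in ZEB1 replicates 1, 2 and 3 (edgeR adjusted p = 0.629). Of the 10 related genes that could not be tested, 6 had no count in any library, and 4 of these 6 encode small heat shock proteins.

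Few pseudogenes named after members had a row in the count table: CCT6P1, CCT6P3, CHORDC1P4, DNAJA1P5 and HSP90AB4P. These had at most 137 counts over all 6 libraries together, in CHORDC1P4, against 403 to 597 counts of CHORDC1 in each control. Pseudogene copies of other members had no row under such a name, so their reads could not be followed. In all, 12 of the 34 members overlap another annotated gene of the table, among them HSP90AA1 with WDR20, TCP1 with ACAT2, CCT4 with COMMD1 and PFDN6 with WDR46. The strand setting of the counting is not given in the sources used here, so reads of such pairs may have been shared or dropped.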

How the data were processed

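Total RNA of 6 TC28a2 samples was turned into DRUG-seq libraries, a low-cost multiplexed form of RNA-seq, per the labels' protocols. The authors deposited raw counts per gene. HISAT2, Subread, featureCounts and GRCh38 are named per the submitters' processing notes; their versions, the strand setting and any collapsing of molecular identifiers were not given in the sources used, so counting floors cover counting error only. Gene names came from RefSeq (GRCh38.p14), which matched 27745 of 28395 IDs.

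Counts were fitted over the whole table with edgeR 4.0.16 in R 4.3.3 (TMM, filterByExpr, robust quasi-likelihood test, group as the only term, two-sided), and p-values were adjusted over all genes tested at a threshold of 0.05. Standard errors are approximate (size of the log2 fold change over the square root of F). DESeq2 1.42.0 and limma 3.58.1 were alternatives. Class averages used log2 CPM with a prior count of 2. The scripts were tested on simulated data. Transcript lengths came from GENCODE v29.

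The members and lists were chosen with earlier results of these data known. Every member is named; values per library are given for the best-counted member of each class, those with an unadjusted p under 0.05 and those whose groups do not overlap. Values of further heat-induced or thinly counted members were added after they were seen. Related genes are named at an unadjusted p under 0.05, with HSPA6 added.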

Additional observations from a re-analysis of the deposited data

How the results depend on the processing

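No member passed the adjusted threshold under most alternatives, and the exceptions all concerned PFDN4. The count of members called was 1 in place of 0 with no filter on low counts, with DESeq2 and without ZEB1 replicate 3 (0 to 1 when single libraries were left out). The count of all genes called was 1, and it was 127 with no low-count filter, 178 with DESeq2, 58 with limma-voom, 3 with the length trend removed, 2 with length and GC trends removed and 2 with ZEB1 replicates 1 and 2 both left out. It ran from 1 to 409 when single libraries were left out, the highest without ZEB1 replicate 3. The causes were not tested. The trend removals and the joint omission were chosen after seeing the data.

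The members' median log2 fold change, 0.025, was -0.095 by library size alone, 0.0018 with no low-count filter, 0.061 after thinning, 0.068 in limma-voom, 0.052 with the length trend removed, 0.067 with length and GC trends removed and 0.081 with ZEB1 replicates 1 and 2 both left out. It ran from -0.012 to 0.082 when single libraries were left out. The HSPA1 to HSPA8 log2 ratio ran from -0.19 to 0.0084, the highest without ZEB1 replicate 1.

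Of 561 log2 fold changes of members under alternatives, 512 kept sign and side of the threshold, 4 kept sign but had no adjusted p (DESeq2), and 42 changed sign, in 17 members. By library size alone the values were HSPA8 -0.13, HSP90AA1 -0.043, DNAJA1 -0.054, BAG3 -0.095, STIP1 -0.13 and CCT3 -0.12. With no low-count filter they were HSPA8 -0.014, STIP1 -0.021 and CCT3 -0.0082. With RLE factors AHSA1 was 0.00067. After thinning BAG3 was -0.049, AHSA1 0.035 and PFDN6 0.061. With the length trend removed HSPA4 was 0.00062, DNAJB1 0.019, HSPB1 -0.049 and PFDN2 -0.17. With length and GC trends removed HSPA1A was 0.13, HSPA1B 0.074, DNAJB1 0.070, CCT7 0.017 and PFDN2 -0.12. When single libraries were left out, AHSA1 ran from -0.11 to 0.10, BAG3 from -0.14 to 0.23, CCT2 from -0.12 to 0.0057, CCT3 from -0.081 to 0.082, DNAJA1 from -0.032 to 0.14, DNAJB1 from -0.11 to 0.0029, DNAJB4 from -0.017 to 0.22, HSP90AA1 from -0.012 to 0.15, HSPA1B from -0.25 to 0.10, HSPA4 from -0.12 to 0.0077, HSPA8 from -0.030 to 0.066, PFDN6 from -0.51 to 0.022 and STIP1 from -0.10 to 0.087.

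Deviations of control and ZEB1 libraries with the same replicate number had correlations of -0.075, -0.010 and -0.011 over 9817 genes. Between libraries with different numbers they ran from -0.089 to 0.104. With 3 libraries per group, these values cannot decide whether the numbers pair the samples. A fit with the replicate block called 0 members, gave a members' median of 0.011 and PFDN4 a log2 fold change of 0.62 (edgeR adjusted p = 0.319). The largest standard errors among the members were those of HSPB8, DNAJB4 and PFDN6, which had at most 72 counts in any ZEB1 library.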
